A study of Drosophila melanogaster with 9 samples.

Results

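The genes described here encode the contractile machinery of muscle: the thin and thick filaments, the titin-like proteins, the Z-disc, the integrin attachments and the calcium pump and release channel. They were chosen by name, as 40 gene symbols, and 39 of the 40 had a row among the 13759 genes and repeat features shared by the deposited tables. Lasp had none and was not analysed here. By role, the 39 were 17 thin filament genes, 6 thick filament genes, 3 titin-like and M-line genes, 7 Z-disc and LIM-domain genes, 4 attachment genes and 2 calcium genes.

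The libraries were made from thoraces pooled from several female flies (Drosophila melanogaster) at adult day 20 and sequenced from both ends, with 3 libraries in each of 3 groups. All groups shared the genetic background W1118 (BL5905) and carried a short hairpin RNA driven by Act5C, a promoter active in nearly all cells. The groups were labelled 412KD, with a hairpin against the retrotransposon 412, RooKD, with a hairpin against the retrotransposon roo, and scramble, the control with a scrambled hairpin. Because every library comes from a pool of whole thoraces, a lower level can mean fewer cells of a type or less RNA per cell, and these cannot be told apart.

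In a sarcomere, myosin thick filaments pull on actin thin filaments that are anchored in the Z-disc. Calcium released through the ryanodine receptor binds troponin C, which moves troponin and tropomyosin and opens the thin filament to myosin, and SERCA pumps the calcium back. Insects build different muscles from different isoforms of the same proteins. The fibrillar flight muscle of the fly thorax is known for the actin Act88F, the troponin C TpnC4 and flightin (fln), a thick filament protein, while the tubular leg and jump muscles are known for Act79B and TpnC41C.

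Library totals ran from 17590599 to 26177587 reads. The targeted elements were read first: the features of 412 summed to 0.719 ± 0.192 CPM (counts scaled to a common library size; SD, n = 3) in the libraries labelled 412KD and to 0.606 ± 0.125 in scramble (exact two-sided permutation test, p = 0.5, the smallest possible being 0.1). The features of roo summed to 11.4 ± 2.39 CPM in the libraries labelled RooKD and to 9.66 ± 1.97 in scramble (exact two-sided permutation test, p = 0.4). Neither element was lower under its own hairpin by these counts, so the groups are named as labelled. The features of 412 held only 10, 23 and 18 reads in the libraries labelled 412KD and 15, 16 and 11 in scramble. How reads with several matches were counted was not given, so these sums cannot show whether the hairpins lowered their elements. Libraries stood apart in other tissues' transcripts: the summed level of 13 ovary and germline markers was 1224 CPM in 412KD replicate 3, 537 in RooKD replicate 1 and 94.6 in 412KD replicate 1, against 2.42 to 5.02 in the other 6 libraries. The 10 gut markers summed to 14953 to 22687 CPM in the libraries labelled 412KD, 10512 to 12212 in RooKD and 7739 to 10253 in scramble, and the 10 fat body markers to 44774 to 75605, 81832 to 94334 and 42112 to 70704. The neuron and hemocyte lists overlapped more closely, with 559 to 905 and 571 to 1134 CPM over the 9 libraries.

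Together the 39 genes held 2.35% to 2.94% of all counted reads in a library. The share was 2.74% ± 0.02 (SD, n = 3) in the libraries labelled 412KD, 2.48% ± 0.15 in those labelled RooKD and 2.72% ± 0.19 in scramble. Levels of different genes are compared here as FPKM, the authors' read counts divided by gene length and by library size. On that scale 16 of the 39 lay above 100 FPKM as the mean of 9 libraries, 20 lay between 10 and 100, and TpnC47D, Zasp67 and fln lay below 10. Of the 39, 20 were among the 1000 most abundant features.

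**Figure D1:**
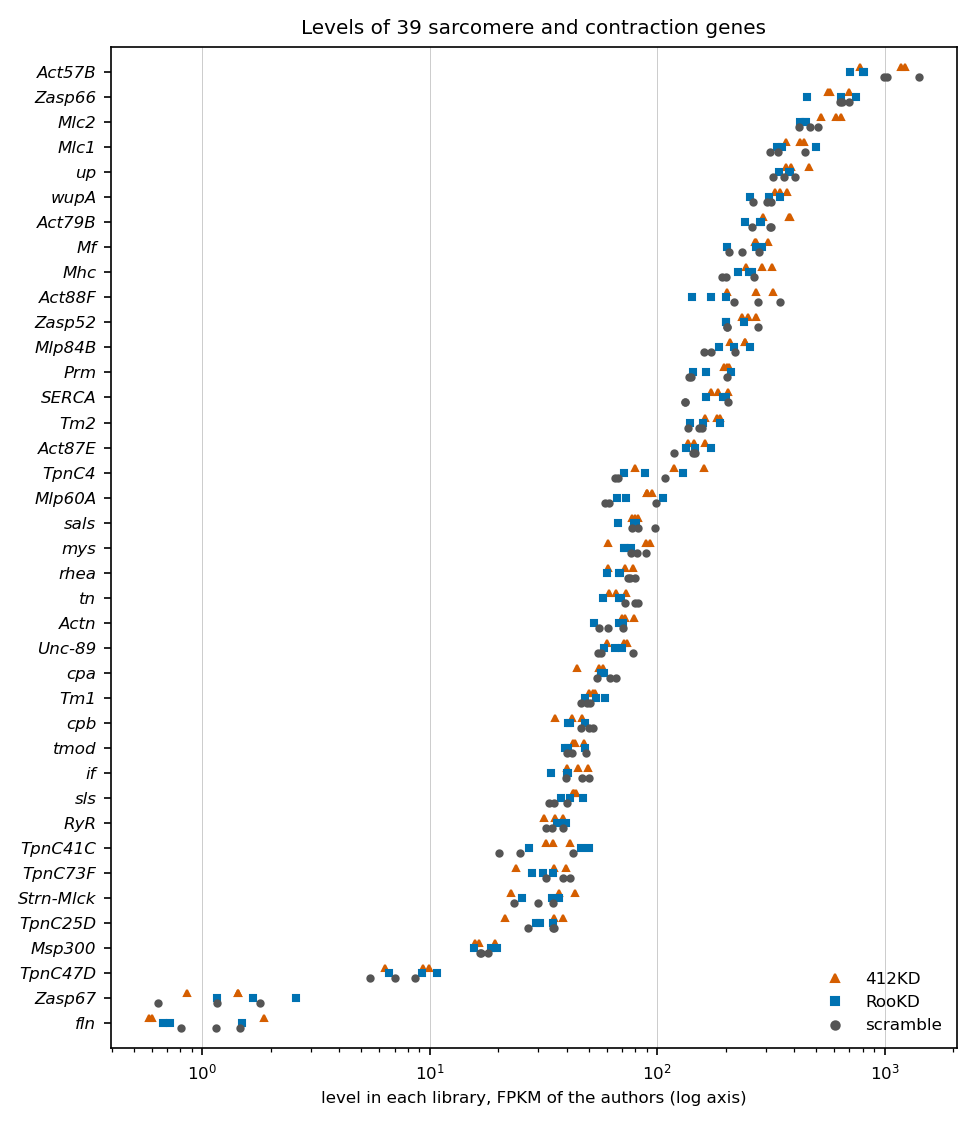
Level of each of the 39 genes in each of the 9 libraries as the authors' FPKM, on a log axis, ordered by the mean of all libraries. Act57B leads with a mean of 994 FPKM, and fln is last with 1.04. Marks of the 3 groups lie over each other for most genes.

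The actin Act57B, known as an actin of larval and body wall muscle, had the highest level, 994 ± 241 FPKM (SD, n = 9), and stood at 1186, 1226 and 778 FPKM in the libraries labelled 412KD, 815, 705 and 801 in those labelled RooKD and 1025, 997 and 1409.9 in scramble. It exceeded the second gene, Zasp66, in all 9 libraries. Act88F, the flight muscle actin, ranked 10 among the 39 with 239 ± 69 FPKM and stood at 271, 322 and 204 FPKM in the libraries labelled 412KD, 201, 142 and 173 in those labelled RooKD and 279, 218 and 346 in scramble. Its lowest 3 libraries were those labelled RooKD. Act79B, the actin of tubular muscle, reached 307 ± 47.7 FPKM, with 382, 378 and 292 FPKM in the libraries labelled 412KD, 286, 284 and 243 in those labelled RooKD and 262, 317 and 315 in scramble. Act88F therefore lay below Act79B in the mean of the libraries, although the ranges of the genes overlapped. Act87E, another actin of larval and body wall muscle, had 145 ± 15.7 FPKM.

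As a share of the summed FPKM of these 4 muscle actins, Act57B made up 54.1% to 63.6% in the 9 libraries, Act79B 14.2% to 21.8%, Act88F 10.9% to 16.6% and Act87E 6.64% to 13.3%. The order of Act57B before the others was the same in every library, while Act88F passed Act79B only in scramble replicates 1 and 3. These actin genes are near-identical copies in their coding sequence, so the split of reads among them depends on how reads with several matches were counted, and that was not given in the sources used here. Act5C, one of the pair of cytoplasmic actins and also the source of the promoter that drives the hairpins, made up 22.4% to 37.2% when all 6 actins were summed.

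Among the 5 troponin C genes, the calcium sensors of the thin filament, TpnC4 made up 37.6% to 62.5% of the summed FPKM and was first in every library. TpnC4 stood at 119, 80.2 and 160.1 FPKM in the libraries labelled 412KD, 71.7, 88.2 and 130.4 in those labelled RooKD and 67.2, 65.2 and 109 in scramble. TpnC41C stood at 32.6, 34.7 and 41.5 FPKM in the libraries labelled 412KD, 27.3, 46.3 and 50 in those labelled RooKD and 20.1, 25 and 42.4 in scramble, which is 12.5% to 22.4% of the summed troponin C. TpnC73F took 9.33% to 23.9%, TpnC25D 8.34% to 20.0% and TpnC47D 2.43% to 5.55%. In 412KD replicate 3, TpnC4 was highest of all libraries while TpnC73F and TpnC25D were lowest. Of the tropomyosins, which lie along the actin filament, Tm2 held 74.3% to 79.0% and Tm1 the rest. The Tm1 value is per length of all its exons, which counts exons that short transcripts lack and lowers the FPKM of genes with many isoforms.

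**Figure D2:**
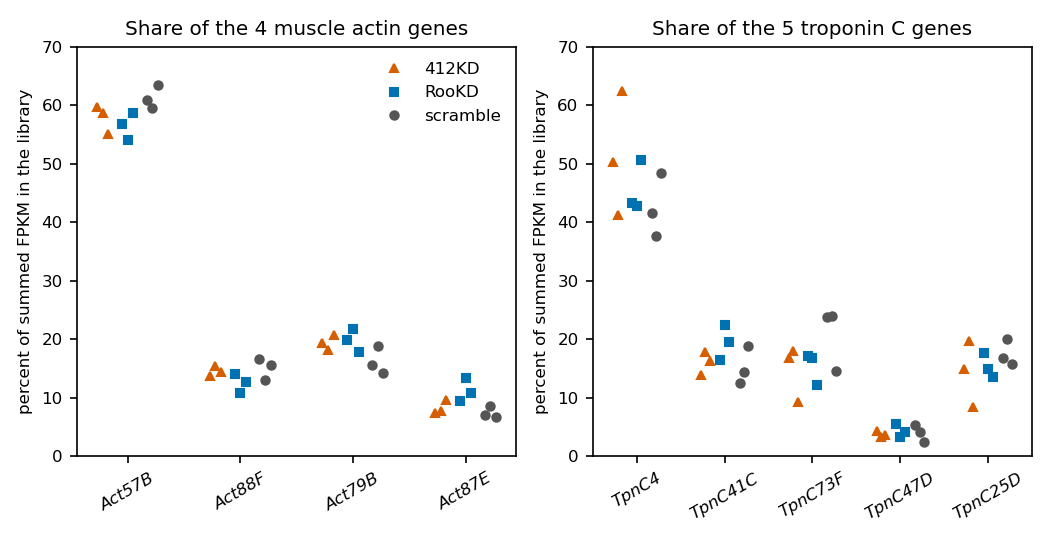
Share of each gene in the summed FPKM of the 4 muscle actins (left) and of the 5 troponin C genes (right), in percent, with 1 mark per library. Act57B takes 54.1% to 63.6% of the actins, and TpnC4 37.6% to 62.5% of the troponin C genes.

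The level of flightin, named above as a protein of flight muscle, was low. The fln gene, on chromosome arm 3L at 19989551 to 19991220 on the minus strand (dm6), stood at 0.585, 0.60 and 1.87 FPKM in the libraries labelled 412KD, 0.718, 0.669 and 1.5 in those labelled RooKD and 0.808, 1.15 and 1.46 in scramble, from 14 reads upward in a library. Its rank by mean FPKM was 9394 of the 13759 features, and Mhc lay 155 to 547 times above it. The antisense gene asRNA:CR45161 covers 801 of the 1300 exonic bases of fln and held 0 to 4 reads itself. Whether counting used strand or left out reads that fall on overlapping genes is not given, so the fln level is uncertain. Of its exonic bases 499 lie outside the overlap, and the longest unbroken run of these is 344 bases. Levels of fln were near 0, Act57B was first and Act88F lay below Act79B in the mean. The fln and actin values depend on counting rules that were not given. TpnC4, also a marker of flight muscle and with no exonic overlap with another gene, did lead the troponin C genes. The genes are therefore called sarcomere and contraction genes here. Whether they stand for flight muscle was not tested. The homeotic gene Antp, active in the thorax, had 2.95 to 4.32 FPKM, Ubx 1.8 to 2.98, abd-A, active in the abdomen, 1.09 to 1.73 and Abd-B 0.182 to 0.362. These last genes were looked at after the values of fln had been seen, and which cells their reads came from was not tested.

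The troponins T and I bind tropomyosin and the other troponins. The genes for them, up and wupA, had 379 ± 40.1 and 316 ± 38.4 FPKM. The level of up was 464, 388 and 367 FPKM in the libraries labelled 412KD, 342, 384 and 381 in those labelled RooKD and 323, 360.1 and 403 in scramble. That of wupA was 346, 372 and 329.7 FPKM in the libraries labelled 412KD, 255, 309.6 and 348 in those labelled RooKD and 264, 316 and 303 in scramble. The groups overlapped for up, and the libraries labelled 412KD were above scramble for wupA. The ratio of up to wupA within a library stayed between 1.04 and 1.34. The capping proteins of the barbed filament end had nearby levels, with cpa at 56.9 and cpb at 44.8 FPKM and a ratio of 1.18 to 1.40. Tropomodulin, which caps the other end, had 43.6 FPKM (tmod), and sals, which is needed for thin filament growth from that end, 80.5.

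Of the thick filament genes, the myosin light chains were highest. The regulatory light chain Mlc2 had 499.8 ± 80.1 FPKM, with 609.6, 641 and 527 FPKM in the libraries labelled 412KD, 446, 425 and 449 in those labelled RooKD and 419, 469.7 and 512 in scramble. The alkali light chain Mlc1 had 392 ± 63.1 FPKM, with 426, 368 and 442 FPKM in the libraries labelled 412KD, 336, 355 and 497 in those labelled RooKD and 314, 338 and 448 in scramble. Mhc, the muscle myosin heavy chain, stood at 320.2, 245 and 289 FPKM in the libraries labelled 412KD, 226, 254 and 262 in those labelled RooKD and 201, 193 and 268 in scramble. The thick filament core protein myofilin (Mf) had 259 ± 35.9 FPKM, with 271, 306 and 270.2 FPKM in the libraries labelled 412KD, 204, 273 and 288 in those labelled RooKD and 207, 235 and 281 in scramble. RooKD replicate 1 and scramble replicate 1 were its lowest libraries, and the groups overlapped. Paramyosin (Prm) had 179 ± 31.6 FPKM. Mhc and Prm kept a ratio of 1.24 to 1.58 over the 9 libraries.

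In the Z-disc, Zasp66 had 630.3 ± 87.8 FPKM, with 565, 573 and 700.3 FPKM in the libraries labelled 412KD, 456, 641 and 747 in those labelled RooKD and 651, 639 and 700.0 in scramble. Zasp52, the main Zasp protein that binds alpha-actinin, had 231 FPKM, alpha-actinin itself (Actn) 66.6, and Zasp67 only 1.42. The muscle LIM proteins Mlp84B and Mlp60A had 212 and 82.2 FPKM, and thin (tn), a TRIM protein that maintains the Z-disc and costameres, 69.9. The very long genes had low values per length: sls, which encodes the titin-like Sallimus and kettin, had 40.6 FPKM over 58996 exonic bases, and Msp300, the nesprin that ties nuclei to the Z-disc, 17.4 over 69810. Obscurin (Unc-89) had 65.3 and Stretchin (Strn-Mlck) 32.1 FPKM.

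At the attachments, the integrin beta chain mys had 78.9 FPKM, talin (rhea), which links integrin to actin, 71, and the integrin alpha chain if 42.9. SERCA, which pumps calcium into the sarcoplasmic reticulum, had 177 FPKM, and the release channel RyR 36.2. Within a library SERCA lay 3.84 to 5.78 times above RyR. Neighbours in the order of levels mostly overlapped: for 35 of the 38 neighbouring pairs the ranges over the 9 libraries ran into each other.

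The first comparison asked whether sarcomere genes differ between flies with the 412 hairpin and scramble. Fold changes are log2 ratios of groups with their standard errors, from counts scaled by TMM (CPM within a gene), and the test was edgeR's quasi-likelihood F test adjusted over all features by the Benjamini-Hochberg method. All 39 genes passed the filter on low counts in each comparison. None of the 39 rose or fell at an adjusted p under 0.05, against 0.0192% of the 10431 features tested. At an unadjusted p under 0.05 edgeR gave 1 of the 39, Mlc2, against 11.2% of all features, and DESeq2 called 0 of the 39, against 2.97% of features called and 1.08% called lower. The median log2 fold change of the 39 was 0.11, with 25 of them above 0, while over all features the median was 0.01 and 51% were above 0. Scaled by library totals alone, the median of the 39 was -0.02 and that of all features -0.12. The gut markers given above were higher in the same libraries, with all 10 above 0 in this comparison, and their part in these values was not tested.

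The thick filament genes had the highest median of the roles with more than 3 genes, 0.28, with 5 of 6 above 0. By library, their median log2 difference from the scramble mean was 0.29, 0.24 and 0.33 in 412KD. It was -0.13, -0.01 and 0.31 in RooKD and -0.18, -0.07 and 0.30 in scramble, so the groups overlapped. Mlc2 stood at 1333, 1401 and 1155 CPM in the libraries labelled 412KD, 980.3, 921 and 963 in those labelled RooKD and 929, 1028 and 1125 in scramble. Its 412KD libraries were above those of both other groups, and the log2 fold change against scramble was 0.34 ± 0.13 (edgeR adjusted p = 0.402, 95% interval 0.04 to 0.64). Mhc stood at 2774, 2126 and 2511 CPM in the libraries labelled 412KD, 1969.8, 2183 and 2223 in those labelled RooKD and 1768, 1676 and 2331 in scramble. Scramble replicate 3 lay among the 412KD values, and the log2 difference was 0.36 ± 0.17 (edgeR adjusted p = 0.482). Prm stood at 1041, 1012 and 1067 CPM in the libraries labelled 412KD, 738, 831 and 1063 in those labelled RooKD and 730.0, 711 and 1043 in scramble. It was above 1000 CPM in all the 412KD libraries, in RooKD replicate 3 and in scramble replicate 3, and lower in the other 4, with a log2 difference of 0.33 ± 0.16 (edgeR adjusted p = 0.492).

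TpnC4 had the highest value of the 39, 0.57 ± 0.30 (edgeR adjusted p = 0.519), with 96.3, 65.1 and 130.3 CPM in the libraries labelled 412KD, 58.6, 71 and 104 in those labelled RooKD and 55.3, 53 and 88.7 in scramble. Its spread within every group was wide, and without 412KD replicate 3, the library with the most ovarian transcripts, the value was 0.30. The LIM protein gene Mlp60A stood at 258, 245 and 244 CPM in the libraries labelled 412KD, 198, 285 and 177 in those labelled RooKD and 162, 167 and 271 in scramble. Scramble replicate 3 and RooKD replicate 2 lay above all 412KD libraries, so the groups overlapped, and the log2 difference was 0.32 ± 0.20 (edgeR adjusted p = 0.58).

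Beside Mlc2, 3 genes had all libraries labelled 412KD above all scramble libraries: Tm2 (0.25 ± 0.11), sls (0.24 ± 0.11) and wupA (0.24 ± 0.11). Those 4 of 39 were 10.3%, near the 8.37% of all features that were higher without overlap. None of the 39 lay below scramble without overlap, against 9.29% of all features, so that 4 of 39 stood apart either way, against 17.7%. All 4 attachment genes had values below 0, between -0.13 and 0.00, and the capping protein gene cpb had the lowest, -0.27 ± 0.13 (edgeR adjusted p = 0.49). Scramble replicate 3 was the highest scramble library for most of the 39. Left out in DESeq2, an alternative added after the data were seen, it gave 6 calls that were higher (sls, Mlp84B, Prm, Mlp60A, SERCA and TpnC41C), while edgeR called none without it. That DESeq2 fit called 384 of its 14117 features with reads, 244 of them higher, against 337 of 14160 with all libraries. The 2.97% given above is of the 11352 features that had an adjusted p in DESeq2. The median of scramble replicate 3 over the 39 genes was 0.16 above the scramble mean, against -0.13 and -0.04 for replicates 1 and 2.

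**Figure D3:**
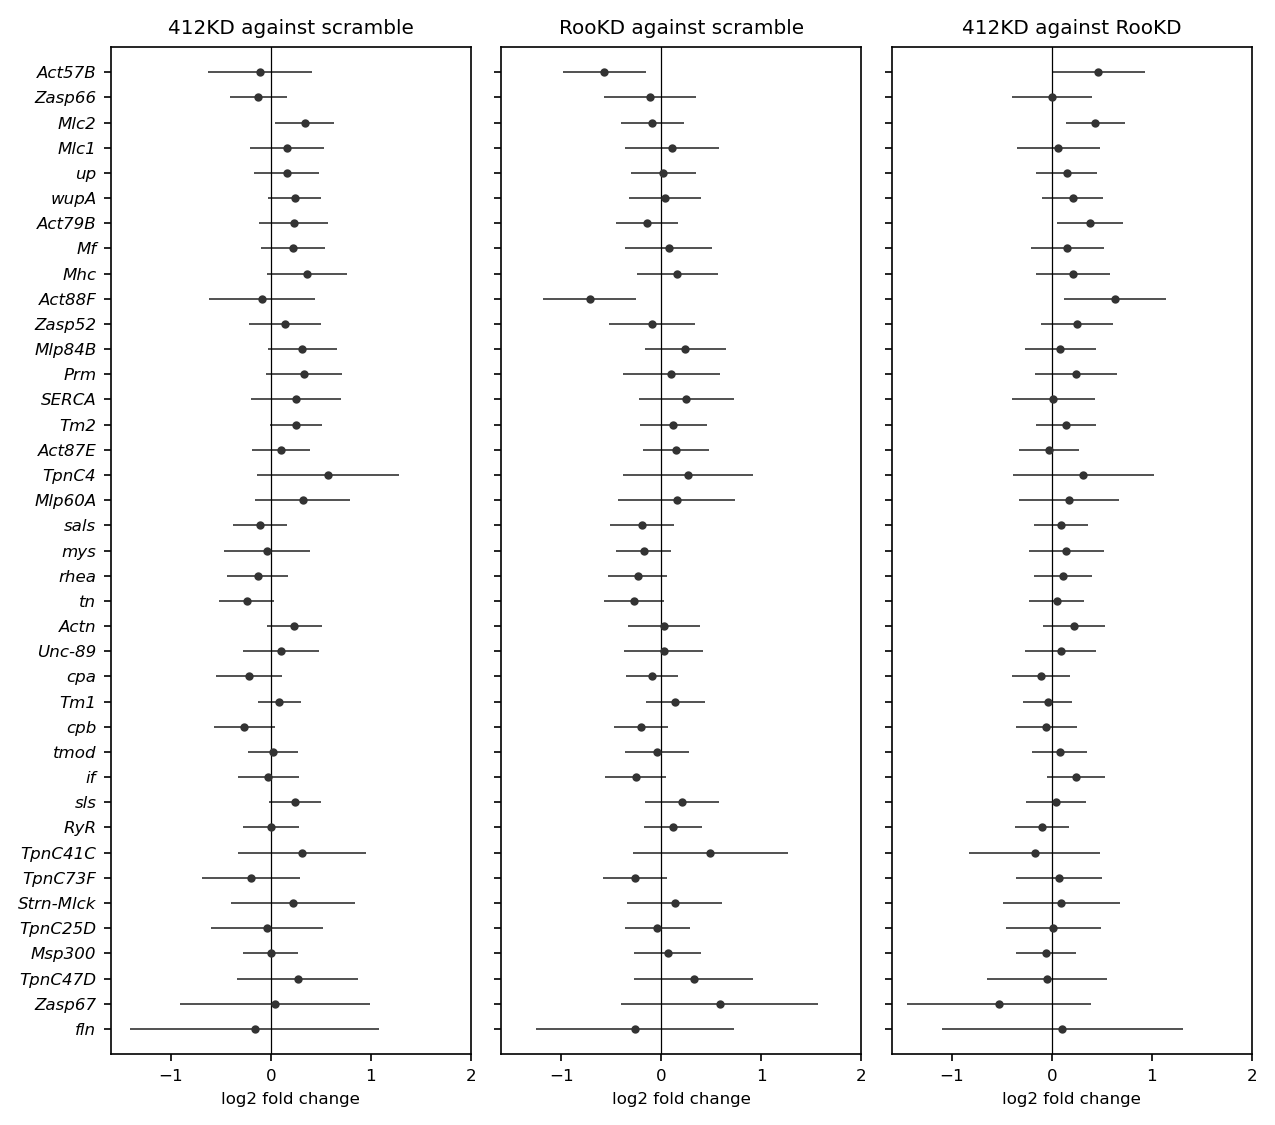
Log2 fold changes of the 39 genes in the 3 comparisons with 95% intervals, from edgeR, ordered by mean FPKM. Most intervals include 0. Those of Act88F and Act57B lie below 0 for RooKD against scramble, and none of the genes passed the adjusted threshold.

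For the roo hairpin against scramble, edgeR again called 0 of the 39 at an adjusted p under 0.05, against 0.107% of 10305 features. At an unadjusted p under 0.05 it gave 2, Act88F and Act57B, against 12.7% of all features. DESeq2 called both of these actins lower, where it called 3.51% of all features in either direction and 1.11% lower. These actins are near-identical in coding sequence, and how reads with several matches were counted was not given. Fold changes of single actins carry that limit in every comparison. The median over the 39 was 0.03 with 22 above 0, and over all features it was 0.02 with 53% above 0. Scaled by library totals alone, these medians were -0.10 and -0.11.

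Act88F, on chromosome arm 3R at 15439969 to 15442177 on the plus strand (dm6), stood at 414, 491 and 311 CPM in the libraries labelled 412KD, 308, 214 and 258 in those labelled RooKD and 431, 334 and 531 in scramble. Every library labelled RooKD was below every scramble library, although RooKD replicate 1 came close to scramble replicate 2. The mean was 260.1 ± 46.9 CPM in RooKD and 432 ± 98.8 in scramble (SD, n = 3 each). The log2 fold change was -0.72 ± 0.20 (95% interval -1.18 to -0.25, edgeR unadjusted p = 0.00746, adjusted p = 0.223), and DESeq2 gave an adjusted p of 0.0292. In the authors' deposited table it was -0.72 with an adjusted p of 0.0292. Without RooKD replicate 1, which held ovarian transcripts, it was -0.86 (edgeR adjusted p = 0.143), and without scramble replicate 3 it was -0.55 (edgeR adjusted p = 0.279).

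Act57B stood at 1956, 2021 and 1286 CPM in the libraries labelled 412KD, 1351, 1152 and 1295 in those labelled RooKD and 1714, 1646 and 2338 in scramble. The RooKD libraries were again all below scramble, and 412KD replicate 3 lay among them. The log2 fold change was -0.57 ± 0.18 (95% interval -0.98 to -0.15, edgeR unadjusted p = 0.0134, adjusted p = 0.263), and DESeq2 gave an adjusted p of 0.0411. The authors' deposited table had -0.57 with an adjusted p of 0.0411. The edgeR value was -0.63 without RooKD replicate 1 and -0.40 without scramble replicate 3. In DESeq2 Act57B was called in none of the 6 fits that each left out 1 library, and Act88F in 2 of them, those without RooKD replicate 1 and without scramble replicate 2. The summed level of the fat body markers was higher in the libraries labelled RooKD than in scramble without overlap, and most of it came from the yolk protein genes Yp2 and Yp3. Of the 10 markers 7 were above 0, while Lsp1beta, Fbp1 and Fbp2 had lower mean FPKM in RooKD. The gut markers were also higher in RooKD without overlap, at 10512 to 12212 CPM against 7739 to 10253 in scramble, with 7 of 10 above 0. All 9 neuron markers were above 0 (median 0.33), although their summed levels overlapped. The part of these lists in the actin values was not tested.

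Of the other muscle actins, Act79B was at -0.14 ± 0.14 and Act87E at 0.14 ± 0.14, with edgeR adjusted p of 0.685 and 0.706. Within a library, the FPKM ratio of Act57B to Mhc was 5.09, 5.16 and 5.27 in scramble, 3.6, 2.77 and 3.06 in RooKD and 3.7, 4.99 and 2.69 in 412KD. All 6 hairpin libraries lay below the scramble libraries, by a little in 412KD replicate 2. This ratio was looked at after the values had been seen. For 412KD against scramble the authors' deposited log2 fold changes were -0.11 for Act57B and 0.36 for Mhc, and a higher Mhc lowers the ratio. Neither had an adjusted p under 0.05. The ratio of Act88F to Mhc was 1.39, 1.13 and 1.29 in scramble, 0.888, 0.557 and 0.66 in RooKD and 0.847, 1.31 and 0.704 in 412KD, with 412KD replicate 2 inside the scramble range.

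The libraries labelled RooKD also lay below scramble without overlap for thin (tn), talin (rhea) and the integrin alpha chain if. The level of tn was 342, 402 and 392 CPM in RooKD and 493, 469.8 and 428 in scramble, a log2 difference of -0.28 ± 0.13 (edgeR adjusted p = 0.423). That of rhea was 643, 714 and 714 CPM in RooKD and 862, 808 and 792 in scramble, a difference of -0.23 ± 0.13 (edgeR adjusted p = 0.48). The integrin gene if was at 197, 231 and 227 CPM in RooKD and 232, 268 and 289 in scramble, a difference of -0.26 ± 0.13 (edgeR adjusted p = 0.462), and its highest RooKD library was only just below its lowest scramble library. With the actins these were 5 of 39 genes, 12.8%, near the 9.88% of all features that were lower without overlap. None was higher without overlap, against 9% of all features, and 18.9% stood apart either way.

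**Figure D4:**
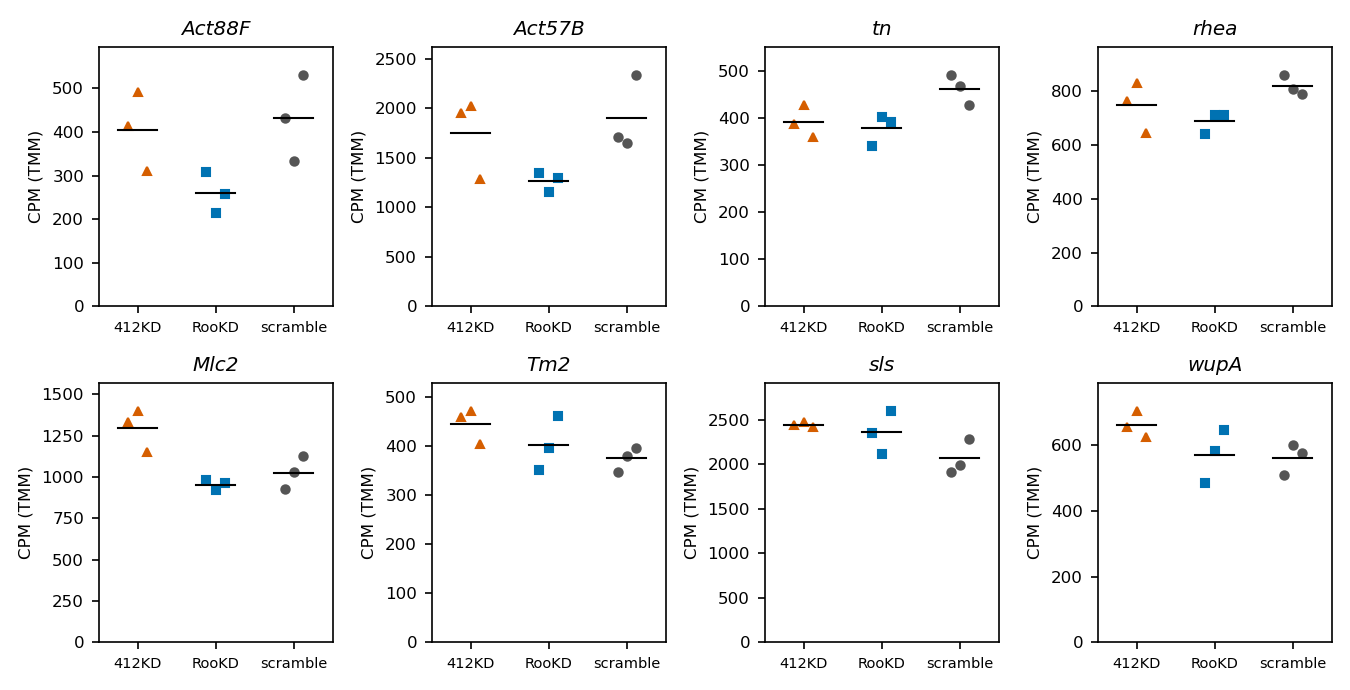
TMM-scaled CPM in each library, with the group mean as a bar, for 4 of the 5 genes whose libraries labelled RooKD all lay below scramble (top) and the 4 whose libraries labelled 412KD all lay above scramble (bottom). Act88F in RooKD has 308, 214 and 258 CPM, and in scramble 431, 334 and 531.

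On the other side, TpnC41C stood at 58.6, 62.3 and 74.8 CPM in the libraries labelled 412KD, 49.4, 82.4 and 88.2 in those labelled RooKD and 36.7, 45.1 and 76.8 in scramble. Scramble replicate 3 was close to the upper RooKD libraries, and the log2 difference was 0.49 ± 0.33 (edgeR adjusted p = 0.565). Zasp67 and TpnC47D are read at a low level. Zasp67 stood at 4.47, 2.67 and 4.45 CPM in the libraries labelled 412KD, 3.64, 5.15 and 7.88 in those labelled RooKD and 3.64, 1.98 and 5.62 in scramble, with a log2 difference of 0.58 ± 0.43 (edgeR adjusted p = 0.595). TpnC47D stood at 7.53, 4.79 and 7.06 CPM in the libraries labelled 412KD, 7.0, 4.95 and 7.94 in those labelled RooKD and 6.58, 5.31 and 4.15 in scramble, with 0.32 ± 0.26 (edgeR adjusted p = 0.629). Libraries of the groups overlapped for both. Of the attachment genes, rhea, mys and if were between -0.26 and -0.17 and Msp300 was at 0.07, and the calcium genes SERCA and RyR were at 0.25 ± 0.21 and 0.11 ± 0.13.

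The hairpin groups were also set against each other, in a fit of all 9 libraries. Of the 39 genes edgeR called 0, against 0.0943% of 10599 features, and DESeq2 called 0, against 0.625% of features called and 0.26% called lower. At an unadjusted p under 0.05 edgeR gave 3, Mlc2, Act88F and Act79B, against 6.02% of features. The median over the 39 was 0.09 with 30 above 0, and over all features it was 0.00 with 50.7% above 0. In this comparison 10 of the 10 gut markers were above 0 (median 0.95) and 2 of the 10 fat body markers (median -0.44), and their part in these values was not tested. Mlc2 lay above RooKD in all libraries labelled 412KD, by 0.44 ± 0.13 (edgeR adjusted p = 0.542). The same held for Act88F, Act79B, the integrin gene if (0.24 ± 0.13), Actn (0.22 ± 0.14) and Zasp52 (0.25 ± 0.16). Those 6 of 39 were 15.4%, against 4.42% of all features higher without overlap. With scaling factors taken after the filter on low counts only Mlc2 and if remained, 2 of 39 against 4.23%. None was lower without overlap, against 4.69%, and 9.1% stood apart either way.

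The log2 differences between the hairpin groups were 0.64 ± 0.23 for Act88F (edgeR adjusted p = 0.679), 0.47 ± 0.21 for Act57B (0.836) and 0.38 ± 0.15 for Act79B (0.772). Act79B stood at 592, 585 and 454 CPM in the libraries labelled 412KD, 445, 436 and 368 in those labelled RooKD and 412, 491 and 490.1 in scramble. For these 3 actins 412KD replicate 3, which held ovarian transcripts, was the lowest library of its group, below RooKD replicates 1 and 3 for Act57B and just above RooKD replicate 1 for Act88F and Act79B. Without that library and RooKD replicate 1 the values were 0.93, 0.70 and 0.55, and 0.53 for Mlc2, with edgeR adjusted p from 0.12 to 0.202. DESeq2 without 412KD replicate 3 called Mlc2, Act79B, Act57B and Act88F, 4 of the 39. That fit called 203 of its 13759 features, against 72 with all libraries. The 0.625% given above is of the 11528 features that had an adjusted p in DESeq2. Zasp67 was at -0.53 ± 0.41 (edgeR adjusted p = 0.983). The comparisons with scramble share the same 3 control libraries, so their values are given side by side only: for Mlc2 0.34 ± 0.13 and -0.09 ± 0.14, and for Act88F -0.09 ± 0.22 and -0.72 ± 0.20 in 412KD and RooKD.

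Against the scramble mean, the median over the 39 genes was 0.17, 0.11 and 0.12 in the 412KD libraries, -0.10, -0.05 and 0.10 in RooKD and -0.13, -0.04 and 0.16 in scramble, on the log2 scale. The groups overlapped, and replicate 3 was the highest library of RooKD and of scramble. For the attachment genes the medians were -0.24, -0.19 and -0.20 in RooKD, -0.04, 0.14 and -0.26 in 412KD and -0.01, 0.01 and 0.01 in scramble. 412KD replicate 3 was lower than every RooKD library. The median SD of the 39 genes between replicates was 0.15 in 412KD, 0.15 in RooKD and 0.18 in scramble, and that of all features with at least 10 reads in every library was 0.20, 0.22 and 0.15. The median standard error of a log2 difference was 0.145, 0.155 and 0.158 in the 3 comparisons. Differences of a few standard errors, such as that of Act88F in RooKD, did not pass the adjusted edgeR threshold.

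**Figure D5:**
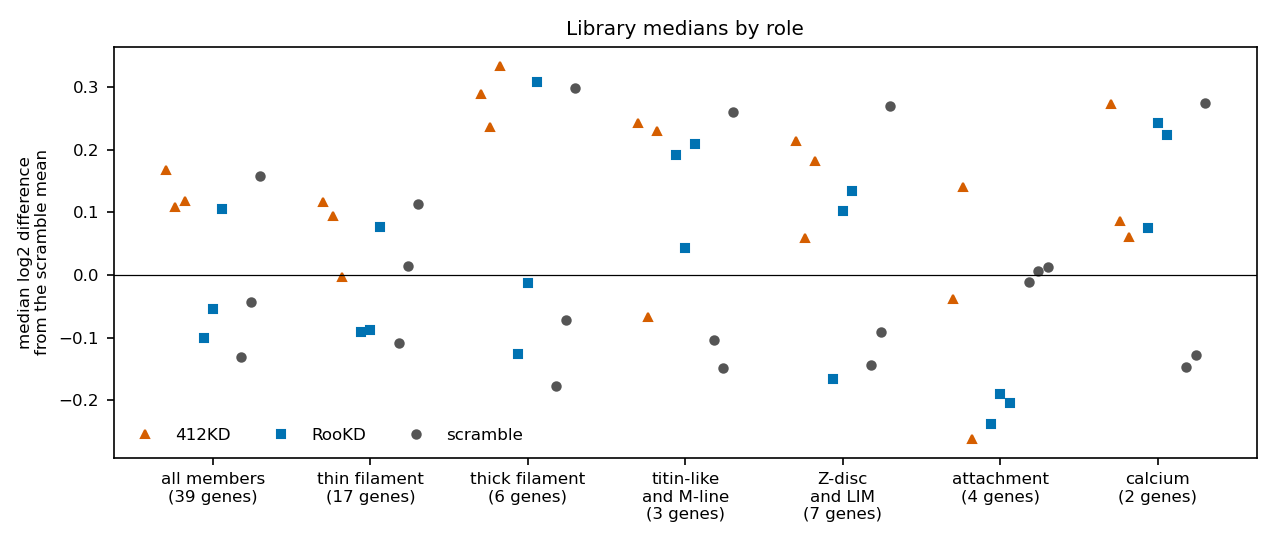
Median log2 difference from the scramble mean over all 39 genes and over the genes of each role, 1 mark per library. For all 39 genes the libraries labelled 412KD lie at 0.11 to 0.17 and overlap scramble, which reaches from -0.13 to 0.16.

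Further muscle genes were read from lists chosen beside the 39. edgeR called none of the 13 other myofibril and assembly genes, the 18 integrin adhesion genes, the 23 tested genes of excitation-contraction coupling (of 25 named) and the 16 genes of flight muscle fate and splicing, in any of the 3 comparisons. At an unadjusted p under 0.05 there were 0, 1, 1 and 1 for 412KD against scramble, 1, 4, 1 and 1 for RooKD against scramble and 1, 0, 0 and 0 for 412KD against RooKD. Over all features these shares were 11.2%, 12.7% and 6.02%, and of the lists the 18 integrin adhesion genes in RooKD, with 4, lay furthest above them. Over the 4 lists DESeq2 called 2 genes, both lower in RooKD than in scramble, where it called 3.51% of all features and 1.11% lower. Of the 13 other myofibril and assembly genes it called 1, starvin (stv), a co-chaperone of muscle maintenance, at -0.55 ± 0.14 (edgeR adjusted p = 0.214). Of the 18 integrin adhesion genes it called 1, thrombospondin (Tsp), a ligand of integrin at muscle attachments, at -0.54 ± 0.13 (edgeR adjusted p = 0.182). The integrin adhesion list had 6 of 18 genes above 0 in RooKD and 5 of 18 in 412KD, with medians of -0.11 and -0.12, beside 53% and 51% of all features above 0 and medians of 0.02 and 0.01. Its summed level was 1666 to 1751 CPM in RooKD, 1555 to 1853 in 412KD and 1830 to 1975 in scramble. The RooKD libraries were below scramble without overlap and the 412KD libraries overlapped with it. The spalt gene salm, the selector of fibrillar flight muscle, had 4.06 to 7.73 FPKM over the 9 libraries.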

How the data were processed

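RNA came from a Trizol extraction, per the labels' protocols. The submitters' processing notes name HISAT2, DESeq2 and the build dm6. How reads were selected and counted, with which strand setting, and where multi-mapping reads went were not given in the sources used here. Each hairpin has a table of its own, deposited by the authors with the same scramble libraries and holding raw read counts, FPKM values, a normalized signal, and log2 fold changes with p-values, per the file headers. The deposited signal and FPKM equal the counts divided by 1 constant per library, and for FPKM by gene length, as found from the values.

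Only counts were tested. 6 low-complexity features that name no gene, with 0.00191% to 0.244% of reads, were left out. edgeR 4.0.16 in R 4.3.3 was run with TMM factors, the filterByExpr filter on low counts, robust dispersions and quasi-likelihood F tests, with p-values adjusted by Benjamini-Hochberg and a threshold of 0.05, on 6 libraries for each comparison with scramble and on 9 for 412KD against RooKD. DESeq2 1.42.0 was the alternative. Values per library are CPM with TMM factors over all 9 libraries, and overlap of groups was read from them. No pseudocount was added to FPKM. Of the 39 genes, 38 had the same coordinates in the reference annotation, and exons of 13 overlap another gene.

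Genes with values in every library were the 5 with the largest fold change in each comparison, the 10 with the highest mean FPKM and the isoform markers. Others named for lack of overlap were chosen after their values were seen. The 39 genes and all lists were chosen with earlier results of these data known. The labels do not say that libraries came from separate crosses, so the spread behind each p-value is that between these pools. It may not be that between crosses. Counts of replicate pairs within a group differed by 22.3 to 175 chi-square per degree of freedom, more than repeated counting of the same RNA would give. The fitting code was tested on simulated data. No protein or promoter sequences were used here.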

Additional observations from a re-analysis of the deposited data

How the results depend on the processing

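edgeR called 0 of the 39 genes in all 3 comparisons under every alternative run: RLE, upper quartile and library totals, no filter on low counts, other sets of libraries, the replicate block and each library left out. DESeq2 called 0, 2 and 0 in 412KD against scramble, RooKD against scramble and 412KD against RooKD. With 1 library left out, DESeq2 called 0 to 6, 0 to 1 and 0 to 4 of the 39, and 174 to 531, 104 to 561 and 57 to 203 of all features. These fits were added after the data were seen. They gave 1 call (Mlc2) without 412KD replicate 3 and 6 without scramble replicate 3 against scramble, 1 without RooKD replicate 1 or scramble replicate 2 (Act88F) and 1 without scramble replicate 3 (SERCA), and 4 without 412KD replicate 3 for 412KD against RooKD. The cause was not tested. The median over the 39 ranged from 0.06 to 0.23, from -0.07 to 0.10 and from 0.04 to 0.13 when edgeR left out 1 library. With library totals the medians against scramble were -0.02 and -0.10, beside -0.12 and -0.11 for all features, and 19 and 12 of the 39 were above 0. Without reads of the mitochondrial genome, a smaller total by construction, the share of reads in the 39 genes was 2.94% ± 0.07 in 412KD. It was 2.65% ± 0.21 in RooKD and 2.88% ± 0.22 in scramble (SD, n = 3 each). Overlap of libraries read with each fit's own scaling factors, also added after the data were seen, gave 4, 4 and 2 genes apart in place of 4, 5 and 6.

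Of all features, edgeR called 2, 11 and 10, and DESeq2 337, 347 and 72. Without a filter edgeR called 15, 26 and 11, with library totals 14, 13 and 10, and with 1 library left out 0 to 105, 0 to 44 and 2 to 22. Fits of all 9 libraries gave 14 and 9 against scramble, the 6 hairpin libraries alone 4, and 412KD against RooKD without both libraries rich in ovarian transcripts 70. The labels' replicate numbers were tried as a block. Same-numbered libraries correlated by 0.09, 0.12 and 0.12 for 412KD with scramble, where every differently numbered pair was lower, from -0.11 to 0.04. For RooKD with scramble they correlated by 0.24, -0.03 and 0.06, against -0.25 to 0.22 for differently numbered pairs. For 412KD with RooKD it was 0.00, 0.40 and -0.21, against -0.50 to 0.37. Same-numbered pairs were thus higher throughout only for 412KD with scramble, and the numbers were not taken to pair libraries in the main fits. With the replicate block edgeR called 0, 10 and 4 features and 0 of the 39 genes, with medians of 0.12, 0.03 and 0.09. At these depths, fln and Zasp67 were the least precise of the 39.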
